A study of Mus musculus with 12 samples.

Results

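Hox genes are the clustered homeobox genes that record position along the body axis, and their transcripts were followed here in mouse embryonic fibroblasts (MEFs, connective tissue cells grown from embryos). The members were all genes whose array symbol is Hox followed by a cluster letter from a to d and a paralog number, which gave 38 of the 19057 genes with a named probe, read by 57 of the 45281 probes. The cells came from E13.5 embryos of a mixed C57BL6/129Sv background, and every group shares that background and medium. The 4 genotypes were wild type (WT, Sting +/+ Trex1 +/+), Trex1 -/- (TKO), Sting -/- (SKO) and Sting -/- Trex1 -/- (STKO). STING is the adaptor that turns on type I interferon genes when DNA is sensed in the cytosol, and TREX1 is an exonuclease that degrades such DNA. Cells of every genotype received either DMSO, the solvent, or DMBA (a carcinogenic polycyclic aromatic hydrocarbon) at 20 µg/ml for 24 h or 48 h, and each combination was hybridised to 1 array.

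The labels tie the arrays to no separate embryos or cultures, so p-values measure only the spread between single arrays, which may be technical. In the tests of genotype and of treatment, this spread also holds any difference in treatment response between genotypes. If a genotype is 1 culture, its sex, its cell mix and the embryonic region it was grown from cannot be told apart from its genotype. How long the DMSO cells were kept is not stated, and an effect of DMBA cannot be told apart from one of culture time. Eif2s3y, a gene of the Y chromosome, averaged 9.39 in WT and was not detected in the other genotypes, and Xist was detected on all 12 arrays. Sting1 averaged 7.92 in WT and 8.00 in TKO against 5.64 in SKO and 5.55 in STKO, and Trex1 averaged 9.07 in WT and 8.25 in SKO against 6.62 in TKO and 6.64 in STKO. All 10 fibroblast markers on the list (Col1a1, Pdgfra, Thy1 and others) were detected. Levels are log2 normalized signals, and a difference of 1 is a change of 2-fold.

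Hox proteins are homeodomain transcription factors. Their genes lie in 4 clusters, and the order of the genes along a cluster matches where along the body they are used: low paralog numbers mark the hindbrain and neck, middle numbers the thorax, and the highest numbers the lumbar, sacral, tail and distal limb regions. Fibroblasts keep part of this code in culture, and the Hoxa and Hoxd genes of high number also pattern the limb along its length. In the RefSeq table of GRCm38.p6 the Hoxa, Hoxb, Hoxc and Hoxd genes lie on chromosomes 6, 11, 15 and 2.

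A probe counted as detected on an array when its detection p was under 0.01. By its best probe, a Hox gene was detected on all 12 arrays for 19 of the 38 genes, on some arrays for 6 and on none for 13. The genes detected on some arrays were Hoxc13 on 10 arrays, Hoxb3 and Hoxd3 on 8 each, Hoxa11 on 7, and Hoxd12 and Hoxd13 on 2 each. The genes detected on no array were Hoxa3, Hoxa6, Hoxa10, Hoxb1, Hoxb8, Hoxb13, Hoxc4, Hoxc5, Hoxc8, Hoxc11, Hoxc12, Hoxd1 and Hoxd11, and the probes detected on no array, of which there were 26, read between 4.38 and 5.57. An undetected probe gives a bound on this array and not an absence of the transcript.

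Detection differed along the paralog numbers. Neither paralog 1 gene was detected, and none of the 3 paralog 3 genes was detected on every array. All 4 paralog 9 genes (Hoxa9, Hoxb9, Hoxc9 and Hoxd9) were detected on all 12 arrays. Of the 4 paralog 13 genes, Hoxa13 was detected on all arrays, Hoxc13 and Hoxd13 on some and Hoxb13 on none. By cluster, 6 of 10 Hoxa genes, 6 of 10 Hoxb genes, 3 of 9 Hoxc genes and 4 of 9 Hoxd genes were detected on all arrays. In the Hoxc cluster 5 of 9 genes were never detected. Of the 13 genes with several probes, 4 had some probes detected and others not, so detection here is that of the best probe of a gene. RNAs from the clusters that are not Hox coding genes, Hottip and Hoxd3os1, were detected on no array.

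**Figure D1:**
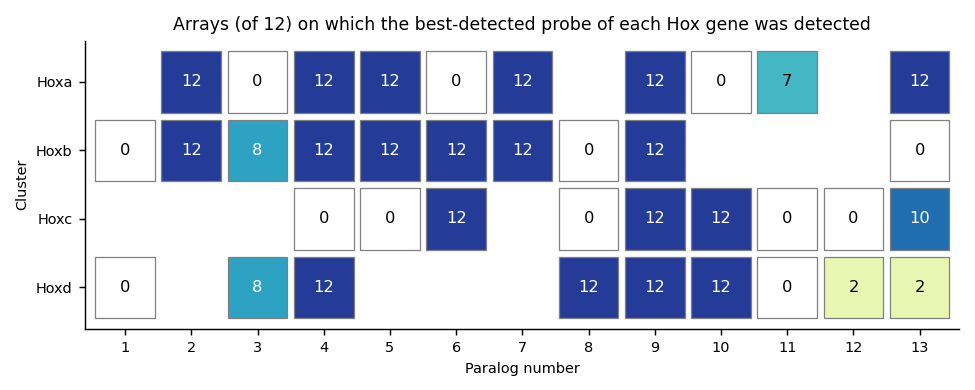
Number of the 12 arrays on which the best-detected probe of each Hox gene passed a detection p of 0.01, by cluster (rows) and paralog number (columns). All 4 paralog 9 genes stand at 12, both paralog 1 genes at 0, and Hoxd12 and Hoxd13 at 2.

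The number of Hox probes detected on an array ran from 25 to 30, and the highest number was on the TKO array under DMSO. That array also had the most probes detected in all, 37.15% of the probes, beside 34.59% on the lowest array. For testing, a probe had to be detected on at least 2 arrays, which kept 30 Hox probes of 25 genes among 18389 probes in all. Of the 30, 23 were detected on all 12 arrays. The others could pass through the genotypes or treatments in which they were high, and for those the filter favours a difference: Hoxd12 and Hoxd13 passed on 2 arrays, both TKO, and a probe of Hoxa2 (ILMN_2618302) passed on 5 arrays, all WT or TKO.

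Which Hox genes differed between the 4 genotypes was asked with limma's moderated F test, with treatment as a term and p-values adjusted over all tested probes (Benjamini-Hochberg). Of the 30 Hox probes, 11 were called at an adjusted p under 0.05, for the 10 genes Hoxa2, Hoxa5, Hoxb3, Hoxb4, Hoxb9, Hoxc10, Hoxd3, Hoxd10, Hoxd12 and Hoxd13. Over all tested probes 9.02% were called. Among the 23 Hox probes detected on all 12 arrays, which no genotype could bring into the test, 6 were called (26.1%), beside 6.64% of the 13640 probes of that kind. In bulk RNA, fewer cells with a transcript and less of it per cell cannot be told apart. The range of the 4 genotype means had a median of 0.74 over the Hox probes and 0.33 over all tested probes. No genotype was highest throughout: among the 25 genes TKO had the highest mean for 9, STKO for 7, WT for 5 and SKO for 4. The 9 of TKO include Hoxd12 and Hoxd13, which passed the filter through TKO arrays alone, so the lead of TKO is not read as a result. In the Hoxb cluster STKO was highest for 5 of 7 genes, and in the Hoxa cluster for 0 of 7.

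**Figure D2:**
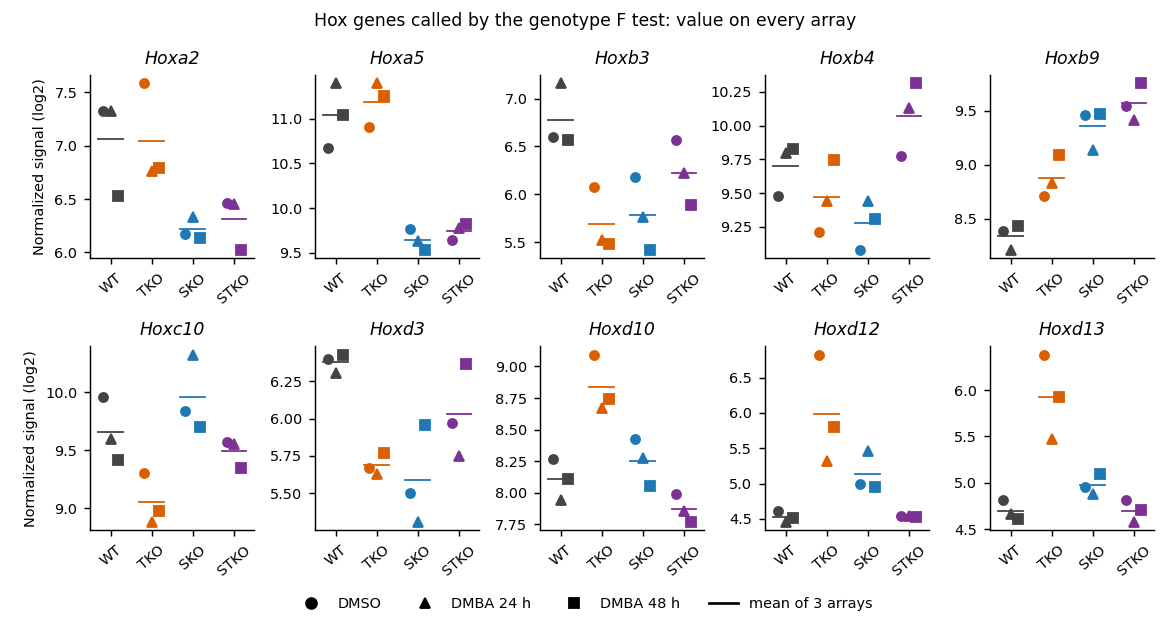
Normalized signal (log2, each panel with its own axis) on every array for the 10 Hox genes called by the genotype F test, by genotype, with symbols for the treatment and a line at the mean of 3 arrays. For genes with several tested probes the brightest probe is drawn. Hoxa5 is high in WT and TKO, Hoxb9 is lowest in WT, and Hoxd10, Hoxd12 and Hoxd13 are highest in TKO.

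Among the genes of paralog numbers 2 and 3 that the F test called, Hoxa2, Hoxb3 and Hoxd3 were highest in WT or close to it. Hoxb2, detected on all arrays, was not called by the F test, and it averaged 8.47 in WT, 8.20 in TKO and 8.78 in SKO. Hoxa2 patterns the hindbrain and the neural crest of the second pharyngeal arch. Its brighter probe, detected on all arrays, read 7.32, 7.32 and 6.53 on the WT arrays (in the order DMSO, 24 h and 48 h of DMBA, kept below), 7.59, 6.76 and 6.79 on TKO, 6.18, 6.33 and 6.14 on SKO and 6.46, 6.45 and 6.02 on STKO. Every WT and TKO array lay above every SKO and STKO array. By this probe Hoxa2 was 1.80-fold lower in SKO than in WT (log2 -0.84 ± 0.20 SE, limma adjusted p = 0.0359, n = 3 arrays a genotype) and 1.78-fold lower in SKO than in TKO (adjusted p = 0.0406). Both calls were lost when the arrays of any 1 treatment were left out. STKO against WT gave -0.75 ± 0.20 with an adjusted p of 0.0707. The dimmer Hoxa2 probe (ILMN_2618302) passed the filter through WT and TKO arrays alone, so its calls against SKO were favoured by the filter and add no support to those of the brighter probe. It was not detected on any SKO or STKO array, and Hoxa2 by this probe was at least 1.47-fold higher in WT than in SKO (adjusted p = 0.0114) and at least 1.46-fold higher in TKO than in SKO (adjusted p = 0.0125). A bound here sets the bright genotype's mean against the lowest signal that counts as detected on the dim genotype's arrays. A p-value beside a bound, here and below, is that of the contrast of measured values and does not test the bound.

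Hoxb3 and Hoxd3, paralogs used from the hindbrain and neck downwards, were higher in WT than in TKO and SKO. Hoxb3 read 6.60, 7.16 and 6.57 on the WT arrays, 6.08, 5.52 and 5.48 on TKO, 6.18, 5.77 and 5.42 on SKO and 6.57, 6.22 and 5.89 on STKO. The WT arrays lay above the TKO and SKO arrays and, by less than the 2 decimals given, above the STKO arrays, as 1.34% of all tested probes did in WT. The probe was detected on all 3 WT and all 3 STKO arrays but on 1 TKO and 1 SKO array. The difference was -1.08 ± 0.20 for TKO against WT (limma adjusted p = 0.00971) and -0.99 ± 0.20 for SKO against WT (adjusted p = 0.0156), and STKO against WT missed the threshold at -0.55 ± 0.20 (adjusted p = 0.188). Hoxd3 read 6.40, 6.30 and 6.43 on the WT arrays, 5.67, 5.63 and 5.77 on TKO, 5.50, 5.31 and 5.96 on SKO and 5.97, 5.75 and 6.36 on STKO. Its WT arrays lay above the TKO and SKO arrays and overlapped STKO. Hoxd3 was 1.61-fold lower in TKO (adjusted p = 0.0171) and 1.72-fold lower in SKO (adjusted p = 0.00843) than in WT. Its probe was detected on all 3 WT arrays, on 2 TKO arrays and on 1 SKO array. The Hoxd3 size for SKO, and those of Hoxb3 for TKO and SKO, thus rest mostly on mutant values not above background.

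Hoxa5, which patterns the neck and upper thorax and the lung, gave the widest spread of genotype means, 1.54. It read 10.67, 11.40 and 11.04 on the WT arrays, 10.91, 11.39 and 11.25 on TKO, 9.77, 9.64 and 9.53 on SKO and 9.64, 9.78 and 9.82 on STKO. The WT and TKO arrays, which carry Sting, all lay above the SKO and STKO arrays, which lack it. SKO was 2.62-fold lower than WT (log2 -1.39 ± 0.16, limma adjusted p = 0.000963) and STKO 2.44-fold lower (-1.29 ± 0.16, adjusted p = 0.00159). Against TKO the same genotypes were 2.90-fold and 2.71-fold lower (adjusted p = 0.000393 and 0.000552). TKO and WT differed by 0.15 ± 0.16 (95% interval -0.22 to 0.52), and STKO and SKO by 0.10 ± 0.16 (-0.27 to 0.47). Without the 24 h arrays the adjusted p of SKO against WT became 0.0567 and that of STKO against WT 0.0740, and without the 48 h arrays that of STKO against WT became 0.0507. The calls against TKO held in each of these.

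Over the tested probes, 1.17% were higher and 0.663% lower on every WT and TKO array than on every SKO and STKO array. Of the Hox probes, Hoxa5 and the brighter probe of Hoxa2 were of the higher kind and Hoxb9 of the lower kind. For the other split, WT and SKO against the genotypes that lack Trex1, no Hox probe was separated in either direction, beside 0.103% higher and 0.114% lower over all tested probes. Hoxa4 and Hoxa7, the detected neighbours of Hoxa5 in its cluster, were not called by the F test. Hoxa4 averaged 6.86, 6.60, 6.12 and 6.19 in WT, TKO, SKO and STKO, and SKO against WT gave -0.74 ± 0.20 with an adjusted p of 0.0535. Hoxa7 averaged 9.86, 10.18, 9.62 and 9.45 in the same order, and it was called in STKO against TKO alone (-0.74 ± 0.16, adjusted p = 0.0245).

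To show the sequence in front of these 2 genes, the 250 bases before the RefSeq start of each are given 5′ to 3′ in the gene's direction (GRCm38.p6, minus strand, chr6:52164832-52165081 for Hoxa2 and chr6:52204588-52204837 for Hoxa5), with matches to CCAAT or TGATNNAT on either strand in capitals. CCAAT is the box bound by NF-Y, and TGATNNAT a composite site of Hox proteins with their Pbx partners.
Hoxa2: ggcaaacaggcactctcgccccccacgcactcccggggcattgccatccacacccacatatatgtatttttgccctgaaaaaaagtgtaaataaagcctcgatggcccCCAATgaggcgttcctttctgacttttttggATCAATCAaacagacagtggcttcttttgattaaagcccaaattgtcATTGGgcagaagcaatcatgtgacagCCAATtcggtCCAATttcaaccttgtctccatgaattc
Hoxa5: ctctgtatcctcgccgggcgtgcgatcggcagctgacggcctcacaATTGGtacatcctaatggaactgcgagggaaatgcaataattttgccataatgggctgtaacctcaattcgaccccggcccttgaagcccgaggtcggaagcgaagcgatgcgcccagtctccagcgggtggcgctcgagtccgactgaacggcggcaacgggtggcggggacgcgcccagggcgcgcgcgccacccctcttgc
The Hoxa2 window held 4 matches to CCAAT and 1 to TGATNNAT, at position -111 from the start on the reverse strand, with 46.4% G and C and 6 CpG dinucleotides. The Hoxa5 window held 1 match to CCAAT and none to TGATNNAT, with 63.6% G and C and 28 CpG. CCAAT occurred in 33.8% and TGATNNAT in 7.68% of the 32851 RefSeq promoters of this length. A match is a string of letters and shows no bound factor.

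In the Hoxb cluster, Hoxb3 was highest in WT, as given above, and Hoxb4 and Hoxb9 in STKO. Hoxb4, used in the neck and in blood stem cells, read 9.48, 9.79 and 9.83 on the WT arrays, 9.21, 9.44 and 9.75 on TKO, 9.08, 9.44 and 9.30 on SKO and 9.78, 10.13 and 10.32 on STKO. STKO lay above TKO and SKO on every array and overlapped WT. It was 1.74-fold higher in STKO than in SKO (limma adjusted p = 0.0351), where 0.185% of all tested probes were called (0.0816% higher in STKO) and no other Hox probe was, and 1.52-fold higher in STKO than in TKO (adjusted p = 0.0163). With each array's median set equal in place of quantile normalization, the count of Hox probes called between STKO and SKO fell to 0. Hoxb5 was higher on every STKO array than on every other array, as were 0.359% of all tested probes, but the F test did not call it (adjusted p = 0.0992).

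Hoxb9, used in the thorax, was lowest in WT, followed by TKO, SKO and STKO. It read 8.39, 8.21 and 8.43 on the WT arrays, 8.72, 8.83 and 9.09 on TKO, 9.46, 9.14 and 9.47 on SKO and 9.55, 9.41 and 9.76 on STKO. The WT arrays lay below all others, as for 1.02% of all tested probes, and TKO did not overlap SKO or STKO. STKO was 2.34-fold higher than WT (log2 1.23 ± 0.12, limma adjusted p = 0.00033), SKO 2.02-fold (1.01 ± 0.12, adjusted p = 0.000963) and TKO 1.45-fold (0.53 ± 0.12, adjusted p = 0.0300). STKO exceeded TKO by 0.69 ± 0.12 (adjusted p = 0.00757) and SKO exceeded TKO by 0.48 ± 0.12 (adjusted p = 0.0464). SKO and STKO, neighbours in this order, differed by 0.22 ± 0.12 (95% interval -0.05 to 0.48, adjusted p = 0.783). The other paralog 9 genes were not called by the F test (Hoxc9 adjusted p = 0.549).

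Hoxc10, used in the lumbar region and the hindlimb, was lowest in TKO. Its brighter probe read 9.96, 9.59 and 9.42 on the WT arrays, 9.31, 8.89 and 8.98 on TKO, 9.84, 10.32 and 9.70 on SKO and 9.57, 9.56 and 9.35 on STKO. All TKO arrays lay below all others by both Hoxc10 probes, as they did for 1.62% of all tested probes. SKO was 1.86-fold higher than TKO (limma adjusted p = 0.0140), and 1.88-fold by the dimmer probe (adjusted p = 0.0379). WT against TKO missed the threshold (-0.60 ± 0.17 for TKO minus WT, adjusted p = 0.0917).

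In the Hoxd cluster, Hoxd10, detected on all arrays, was highest in TKO. Its neighbours towards the 5′ end, Hoxd12 and Hoxd13, were detected on TKO arrays alone, so the filter fixed their direction and they add no support to that of Hoxd10. These genes pattern the hindlimb, the digits and the genital tubercle in the embryo. Hoxd10 read 8.27, 7.95 and 8.11 on the WT arrays, 9.09, 8.67 and 8.74 on TKO, 8.42, 8.28 and 8.05 on SKO and 7.99, 7.85 and 7.77 on STKO. The TKO arrays lay above all others, as they did for 1.28% of all tested probes. TKO was 1.65-fold higher than WT (log2 0.73 ± 0.12, limma adjusted p = 0.00526), 1.50-fold higher than SKO (adjusted p = 0.0181) and 1.95-fold higher than STKO (adjusted p = 0.000881). WT and SKO differed by 0.14 ± 0.12 (95% interval -0.12 to 0.41).

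Hoxd13 read 4.81, 4.66 and 4.61 on the WT arrays, 6.38, 5.47 and 5.92 on TKO, 4.96, 4.87 and 5.10 on SKO and 4.81, 4.58 and 4.71 on STKO. It was detected on 2 TKO arrays, those under DMSO and 48 h, and on none of any other genotype. The bounds, which the p-values do not test, were at least 1.20-fold higher in TKO than in WT (limma adjusted p = 0.00161), at least 1.15-fold over SKO (adjusted p = 0.00769) and at least 1.10-fold over STKO (adjusted p = 0.00152). Without the 48 h arrays the TKO against WT difference was no longer called (adjusted p = 0.0689). Hoxd12 was detected on the same 2 TKO arrays, and read 4.61, 4.46 and 4.52 on the WT arrays, 6.83, 5.32 and 5.81 on TKO, 4.99, 5.47 and 4.96 on SKO and 4.55, 4.54 and 4.53 on STKO. One SKO array, at 24 h, lay above a TKO array. The bounds, again not tested by the p-values, were at least 1.25-fold in TKO over WT (adjusted p = 0.0170) and at least 1.15-fold over STKO (adjusted p = 0.0187). Hoxd11, which lies between Hoxd10 and Hoxd12, was not detected on any array, and Hoxd8 and Hoxd9 were not called by the F test (adjusted p = 0.530 and 0.721 for their brighter probes).

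The 250 bases before the RefSeq start of these neighbours are printed to show the sequence in front of the Hoxd genes called in TKO (GRCm38.p6, plus strand, chr2:74667975-74668224 for Hoxd13, chr2:74674763-74675012 for Hoxd12 and chr2:74691641-74691890 for Hoxd10, matches in capitals as above).
Hoxd13: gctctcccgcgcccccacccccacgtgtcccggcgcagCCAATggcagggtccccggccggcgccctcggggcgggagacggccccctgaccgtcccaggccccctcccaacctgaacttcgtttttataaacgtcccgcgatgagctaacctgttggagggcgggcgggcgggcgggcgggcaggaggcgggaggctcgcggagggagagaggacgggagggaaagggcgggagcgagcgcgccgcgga
Hoxd12: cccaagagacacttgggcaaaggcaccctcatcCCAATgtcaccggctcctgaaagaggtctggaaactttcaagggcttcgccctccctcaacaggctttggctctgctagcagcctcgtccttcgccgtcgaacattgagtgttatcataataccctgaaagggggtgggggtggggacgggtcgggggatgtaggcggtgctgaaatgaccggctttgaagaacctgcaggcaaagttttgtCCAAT
Hoxd10: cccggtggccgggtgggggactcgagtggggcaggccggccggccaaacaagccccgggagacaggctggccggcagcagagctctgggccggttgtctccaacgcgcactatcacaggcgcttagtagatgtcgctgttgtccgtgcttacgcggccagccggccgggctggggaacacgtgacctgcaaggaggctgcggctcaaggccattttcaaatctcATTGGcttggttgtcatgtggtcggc
None of these windows held TGATNNAT, and they held 1, 2 and 1 matches to CCAAT. They had 74.4, 55.6 and 65.6% G and C and 31, 10 and 20 CpG dinucleotides, beside medians of 52.4% and 6 over all promoters. Over the 24 Hox promoters in the RefSeq table, which cover 22 of the 38 genes, 14 held CCAAT, 4 held TGATNNAT and 0 held CCAATAAA, a site of Hox proteins of high paralog number that contains CCAAT. The Hox medians were 59.2% G and C and 13 CpG.

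Macrophage markers, the list with Adgre1, Csf1r, C1qa and Lyz2, moved with TKO: 8 of its 9 measured genes were called by the F test, beside 9.02% of all tested probes, all 9 were detected on some arrays, and their summed linear signal ranged over 2970 to 5500 for TKO, 19200 to 33600 for WT, 12700 to 27100 for SKO and 16100 to 27900 for STKO. Epithelial markers summed to 394 to 523 in TKO and 191 to 321 over the other genotypes, with 5 of 7 tested and 2 called. Fibroblast markers summed to 41000 to 56200 for TKO, 45900 to 63000 for WT, 65100 to 69300 for SKO and 59500 to 67900 for STKO, with 5 of 10 called. The part of these markers in the Hox differences was not tested.

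**Figure D3:**
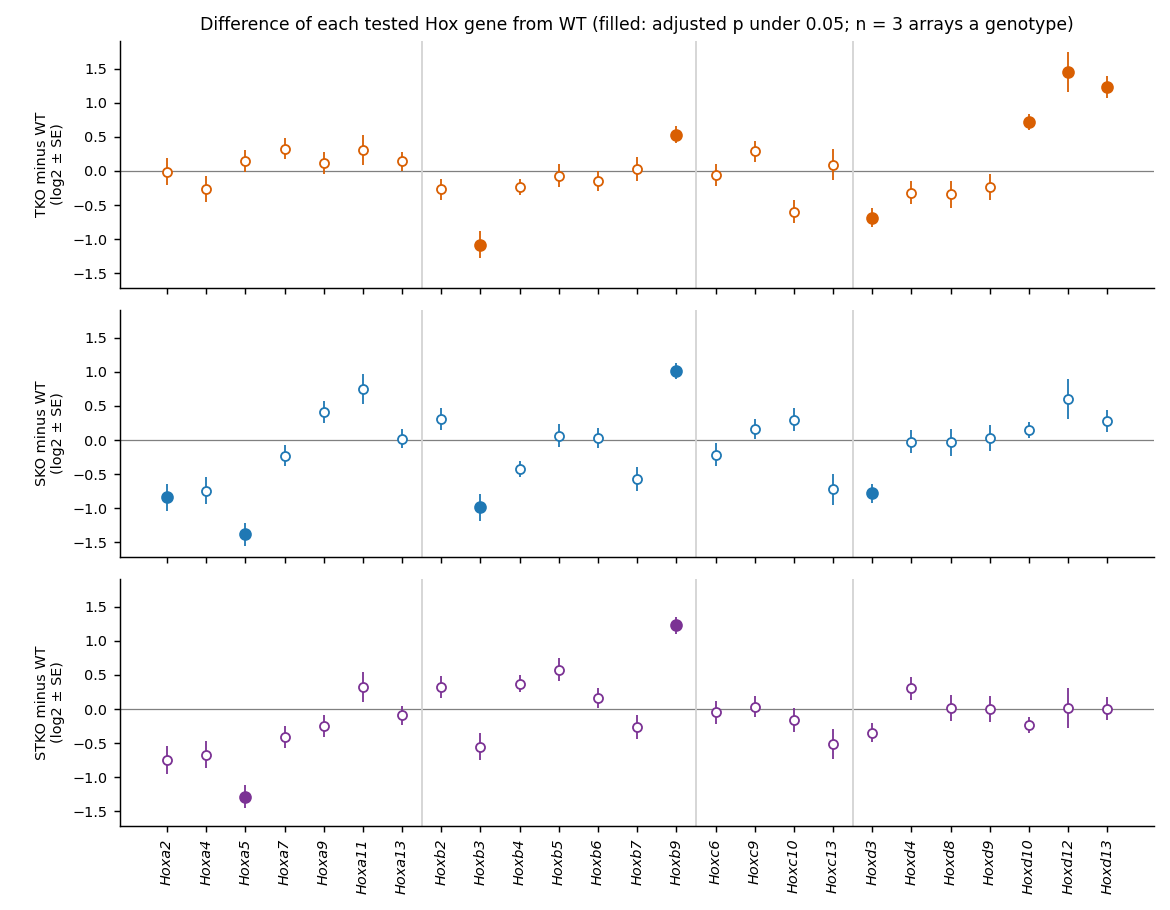
Difference of each mutant genotype from WT (log2 ± SE, n = 3 arrays a genotype, limma) for the 25 tested Hox genes by their brightest tested probe, ordered by cluster and paralog number. Filled points have an adjusted p under 0.05: Hoxb9 is filled in all 3 panels, Hoxa5 in the SKO and STKO panels, and Hoxd10, Hoxd12 and Hoxd13 in the TKO panel alone.

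By pair, TKO against WT gave 4 Hox probes higher and 2 lower, where 5.21% of all tested probes were called (2.22% higher, 2.99% lower). SKO against WT gave 1 higher and 5 lower (background 6.54%, of which 2.84 and 3.7%), and STKO against WT 1 higher and 1 lower (4.68%, 1.94 and 2.74%), which is near its background. SKO against TKO gave 3 higher and 5 lower (6.04%, 2.85 and 3.19%), and STKO against TKO 2 higher and 5 lower (4.85%, 2.37 and 2.47%). These counts include Hoxd12, Hoxd13 and the dimmer Hoxa2 probe, whose direction the filter favoured. Of the 23 Hox probes detected on all 12 arrays, TKO against WT called 2 (8.7%, beside 3.72% of all such probes). SKO against WT called 3 (13%, beside 5.22%) and STKO against WT 2 (8.7%, beside 3.75%). SKO against TKO called 6 (26.1%, beside 4.52%) and STKO against TKO 5 (21.7%, beside 3.38%). The medians over the 30 probes stayed between -0.12 and 0.08 in the 6 pairs, so the Hox genes did not shift one way as a set. Comparisons with WT share its arrays, as those with TKO share the TKO arrays. Leaving out the arrays of 1 treatment left 9 Hox probes called by the F test without DMSO, 3 without 24 h and 2 without 48 h. The F calls of Hoxa5 and Hoxb9 held in each of these. No named Hox difference that has a direction turned it in any setting, and the F test has none. Some pair calls were lost whichever treatment was left out. They were those of Hoxa2 (brighter probe), Hoxa7, Hoxb4 and Hoxc10 (dimmer probe), and Hoxd3 for TKO against WT. Hoxd10 for TKO against WT and SKO, and Hoxb9 for TKO against every other genotype, were lost in the same way.

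Genes that mark limb and trunk fields, from lists chosen with earlier results known, also differed between genotypes. Of 10 tested limb genes, 7 were called by the F test (Tbx4, Fgf10, Shox2, Msx1, Alx4, Grem1 and Lhx9), beside 9.02% of all tested probes, and 7 of the 17 limb genes on the array could not be tested, Tbx5, Pitx1 and Shh among them, which were detected on no array. Tbx4, a transcription factor of the hindlimb and lung mesenchyme, read 6.15, 7.12 and 7.16 on the WT arrays, 9.00, 8.93 and 8.81 on TKO, 8.34, 8.25 and 8.54 on SKO and 6.69, 7.07 and 7.10 on STKO. TKO and SKO lay above WT and STKO on every array. The share of all tested probes split in this way was not counted. The difference from WT was 2.10 ± 0.21 in TKO (limma adjusted p = 0.000293) and 1.57 ± 0.21 in SKO (adjusted p = 0.00213).

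Fgf10, the growth factor that starts limb and lung buds, was lowest in SKO. It read 7.66, 8.02 and 8.82 on the WT arrays, 7.56, 7.47 and 8.04 on TKO, 5.31, 5.23 and 6.81 on SKO and 6.46, 6.37 and 7.58 on STKO. SKO was called lower than WT (limma adjusted p = 0.000128). Its SKO values under DMSO and at 24 h lay under the lowest detected signal of those arrays (5.72 and 5.79). The size of the difference is therefore not given. Shox2, of the proximal limb, was lowest in TKO (-1.12 ± 0.12 against WT, adjusted p = 0.000355), and Msx1, of the distal limb bud, was highest there (1.55 ± 0.34, adjusted p = 0.0278). Of 9 tested genes of body wall, head and trunk mesenchyme, 3 were called (Tbx18, Barx1 and Isl1), beside the same 9.02%. Tbx18 read 6.35, 6.39 and 6.50 in WT and 4.47 to 5.72 elsewhere. Barx1 read 6.41, 6.31 and 6.22 in WT and 4.58 to 5.50 elsewhere. Both were detected on the 3 WT arrays alone, so the filter kept them through WT and fixed their direction. The count of 3 of 9 rests mostly on Tbx18 and Barx1 and is not read as an excess over 9.02%. Isl1 was 1.32 ± 0.19 lower in SKO than in WT on the log2 scale (adjusted p = 0.00255). None of the 8 Hox cofactors (Pbx, Meis and Pknox proteins, which bind DNA with Hox proteins) and none of the 14 tested Hox regulators (Polycomb and Trithorax proteins, retinoid receptors and others) was called by the F test by its brightest probe, although dimmer probes of the regulators Eed, Hnrnpk and Rarb were.

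Single Hox genes differed between the DMBA and DMSO arrays. At 24 h 1 of 30 Hox probes was called, Hoxc13, which was higher, where 15.6% of all tested probes were called and 6.8% were higher. At 48 h 10 probes were called, 4 higher (Hoxb4, Hoxb7, Hoxc6 and Hoxc13) and 6 lower (2 probes of Hoxa2, and Hoxa9, Hoxb2, Hoxb3 and Hoxc9), which is 33.3% beside 39.6% over all tested probes (19.1% higher, 20.4% lower). Between 24 h and 48 h, 2 probes fell (Hoxa2 and Hoxb2) beside 10.4% called and 5.21% lower over all tested probes. The Hox share was thus near or under the background in each, and the medians over the 30 probes were -0.08 at 24 h, -0.08 at 48 h and 0.04 between them.

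**Figure D4:**
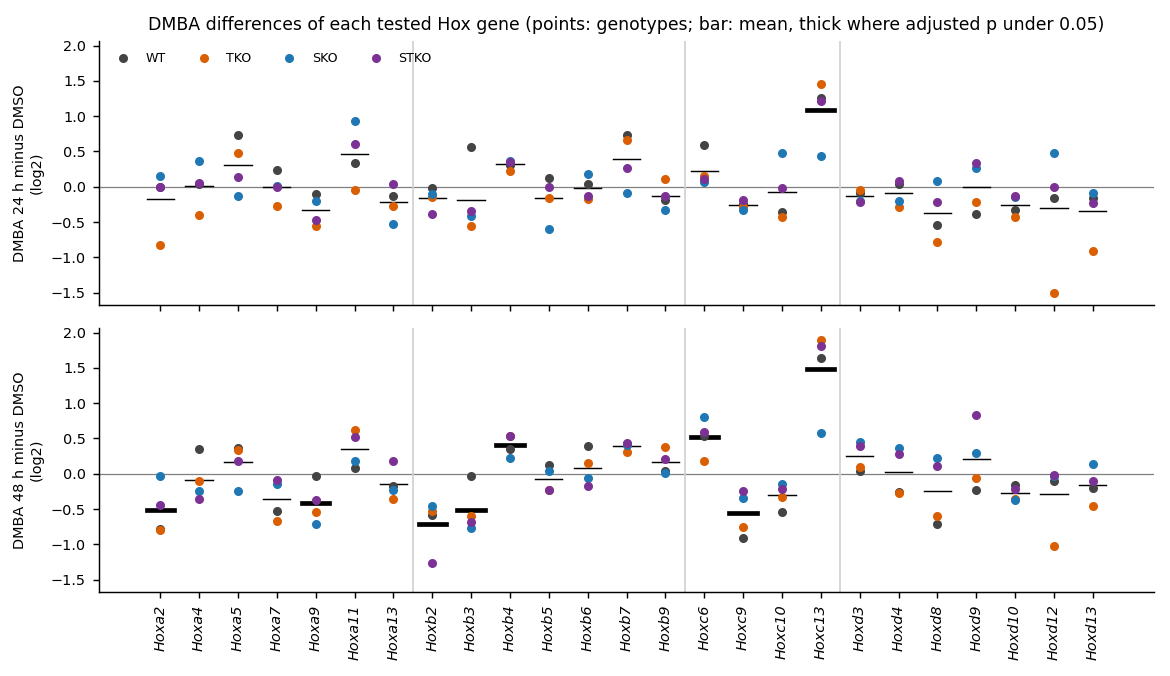
Difference from DMSO at 24 h and at 48 h (log2) for the 25 tested Hox genes by their brightest tested probe, with 1 point for each genotype and a bar at the mean, thick where the adjusted p was under 0.05. Hoxc13 stands highest in both panels, and Hoxb2 lowest in the panel for 48 h.

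Hoxc13, known for hair and nail keratin genes, gave the largest rise of a Hox gene. Under DMSO it read 5.71, 5.65, 5.62 and 5.16 in WT, TKO, SKO and STKO, at 24 h 6.97, 7.10, 6.05 and 6.38, and at 48 h 7.35, 7.55, 6.20 and 6.96. It was detected on 2 of the 4 DMSO arrays and on all 8 DMBA arrays. The rise was 1.09 ± 0.20 at 24 h (limma adjusted p = 0.00761, n = 4 genotypes) and 1.48 ± 0.20 at 48 h (adjusted p = 0.00046), with the undetected arrays at their measured values. In WT and TKO, detected under DMSO, the 48 h rise was 1.65 and 1.90. SKO and STKO were not detected under DMSO, so the size of their rise is not given, and SKO was the lowest of the genotypes at 24 h and at 48 h. The 24 h call was lost without the WT, TKO or STKO arrays (highest adjusted p 0.0613), and the 48 h call held in every setting.

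Hoxb2, used in the hindbrain, fell. It read 8.68, 8.43, 8.96 and 9.35 under DMSO in WT, TKO, SKO and STKO, 8.66, 8.28, 8.86 and 8.96 at 24 h, and 8.08, 7.90, 8.51 and 8.08 at 48 h. Within each genotype 48 h was the lowest, although the arrays of the treatments overlapped across genotypes. The change at 48 h was -0.71 ± 0.14 (1.64-fold lower, limma adjusted p = 0.00296), and -0.55 ± 0.14 between 24 h and 48 h (adjusted p = 0.0339). Its paralog Hoxa2 also fell at 48 h, by the brighter probe -0.52 ± 0.17 (adjusted p = 0.0392). The dimmer probe was called lower too (adjusted p = 0.01), but it was detected on 2 DMSO arrays and 1 array at 48 h, so its difference rests mostly on values not above background and its size is not given.

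Genes of the Hoxc cluster were called in both directions. Hoxc9, used in the thorax, read 10.96, 11.21, 10.97 and 10.76 under DMSO in WT, TKO, SKO and STKO and 10.06, 10.46, 10.62 and 10.52 at 48 h (-0.56 ± 0.13, limma adjusted p = 0.00848). Hoxc6, of the upper thorax and forelimb level, read 12.26, 12.46, 12.12 and 12.34 under DMSO and 12.79, 12.63, 12.92 and 12.93 at 48 h (0.53 ± 0.14, adjusted p = 0.0169). These genes of the same cluster thus moved in opposite directions.

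Hoxb4 read 9.48, 9.21, 9.08 and 9.78 under DMSO in the same order and 9.83, 9.75, 9.30 and 10.32 at 48 h. It was higher at 48 h in 4 of 4 genotypes (0.41 ± 0.10, limma adjusted p = 0.0109). Hoxb7, of the thorax, rose by 1 of its 2 probes, from 9.83, 9.86, 9.52 and 9.74 to 10.24, 10.15, 10.20 and 10.27 (0.48 ± 0.15, adjusted p = 0.0260). The brighter Hoxb7 probe gave 0.39 ± 0.15 with an adjusted p of 0.0654. Hoxa9 read 6.59, 7.02, 7.26 and 6.57 under DMSO and 6.56, 6.48, 6.54 and 6.20 at 48 h (-0.41 ± 0.14, adjusted p = 0.0352). The WT difference of Hoxa9 was near 0, and its dimmer probe was not called. Leaving out 1 genotype left between 4 and 6 Hox probes called at 48 h.

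**Figure D5:**
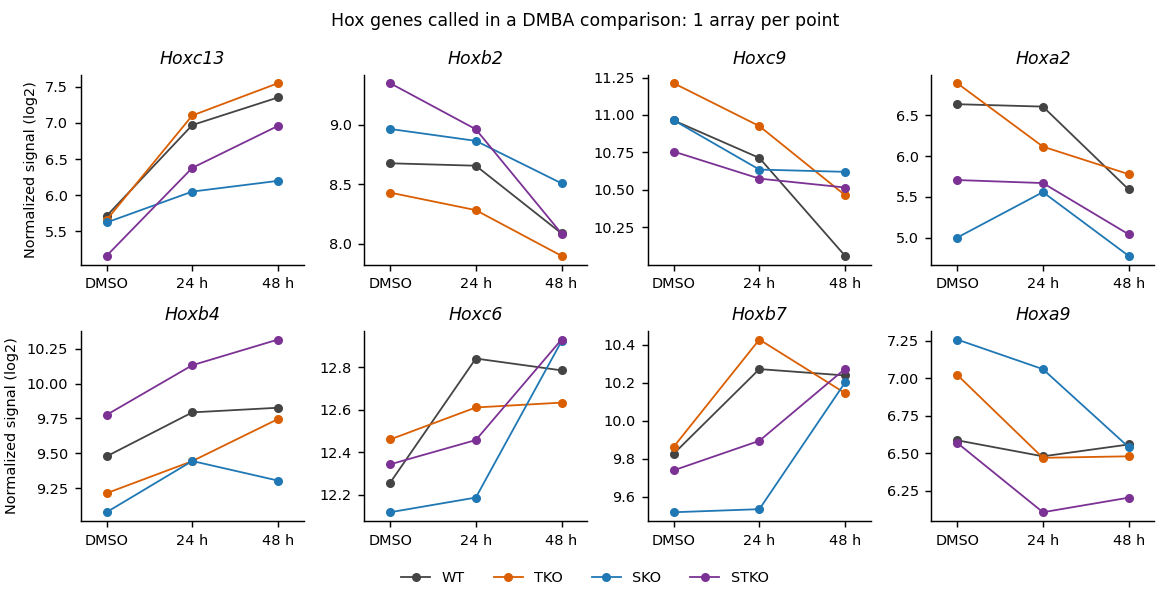
Normalized signal (log2, each panel with its own axis) under DMSO and after 24 h and 48 h of DMBA for the 8 Hox genes with the smallest p in a DMBA comparison, with 1 line for each genotype and 1 array for each point. The probe drawn is the one with the smallest p. The Hoxa2 probe drawn is the dimmer one, detected on 5 of the 12 arrays. Hoxc13 is higher at 48 h than under DMSO in all 4 genotypes and lowest in SKO at both times of DMBA, and Hoxb2 is lowest at 48 h in each.

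Of 8 Hox cofactors, 2 were higher at 48 h (Pbx2 and Pbx4) and 4 lower (Meis1, Meis2, Pbx3 and Pknox2), beside 39.6% of all tested probes called. Pknox2 was called lower (limma adjusted p = 0.00305), from 7.96, 8.06, 7.48 and 7.12 under DMSO in WT, TKO, SKO and STKO to 4.94, 5.32, 6.90 and 5.02. It was detected on all 3 SKO arrays and elsewhere under DMSO alone, so most of its values at 48 h are not above background and the size of the fall is not given. Of 14 regulators, 1 was higher (Eed) and 6 were lower, Ezh2 among them (-0.64 ± 0.12, adjusted p = 0.00235), beside the same 39.6%. Of the 9 macrophage markers, 2 were higher and 6 lower at 48 h (median -0.82), C1qa by -1.98 ± 0.17 and Lyz2 by 0.93 ± 0.13 at 48 h, and their part in the Hox differences was not tested.

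Whether the DMBA response depended on STING was tested as the interaction of Sting status with treatment, over the mean of 24 h and 48 h. The test called 1 of 30 Hox probes, Hoxd8, where 6.1% of all tested probes were called. Hoxd8, used in the trunk, read 10.41, 9.87 and 9.70 on the WT arrays, 10.11, 9.32 and 9.52 on TKO, 9.86, 9.94 and 10.08 on SKO and 10.05, 9.83 and 10.15 on STKO. The response at 24 h and 48 h was -0.54 and -0.71 for WT, -0.79 and -0.59 for TKO, 0.08 and 0.23 for SKO, and -0.21 and 0.11 for STKO. The difference of responses was -0.71 ± 0.16 (limma adjusted p = 0.0471), and the adjusted p was 0.0525 when probes detected on 1 array were also tested. For Trex1 status the interaction called 0 Hox probes by limma, with 0 at an unadjusted p under 0.05 and 0 calls over all tested probes.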

How the data were processed

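Transcripts were measured on 12 Illumina MouseWG-6 bead arrays, 1 for each of 4 genotypes and 3 treatments, grouped by the sample titles. Per the file headers and values, the deposited signals are linear probe intensity values without normalization. The deposited detection column is a score that rose with the signal (Spearman 0.98 to 0.99) and was read as 1 minus the detection p, against its name in the header. The authors' value table is in log2 units and equals quantile-normalized log2 signals minus each probe's median, with a largest difference of 0.0062. The sources used here give neither the software nor the probes' build, and 0 value columns lacked a sample.

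Signals were background corrected with limma's normal-exponential model from the detection p (offset 16), quantile normalized and log2 transformed (limma 3.58.1, R 4.3.3). Between 15662 and 16824 probes were detected per array. The platform annotation gave 34885 probes 1 symbol, 18 several and 10378 none. A gene was represented by its tested probe with the highest mean. Linear models held genotype and treatment (6 residual degrees of freedom) or their interaction with Sting or Trex1 status (4), and p-values were adjusted over 18389 probes (Benjamini-Hochberg, 2-sided, threshold 0.05). Values after ± are limma's standard errors, and intervals are at 95%. The number of arrays limits the precision. The fits were tested on simulated data. Named Hox genes are those called by the genotype F test, and the 8 with the smallest p under DMBA, with up to 4 called members of each other list. Members, lists and motifs were chosen with earlier results of these data known. Alternatives were median scaling, no background correction, other detection filters, moderation with an intensity trend, models without the block, leaving out the arrays of 1 treatment or genotype, the mean of a gene's probes, and, added after seeing the data, the authors' table. Chips are not named and no chip block was fitted.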

Additional observations from a re-analysis of the deposited data

Results flagged for a closer look

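Hoxb2 fell by 1.27 on the log2 scale in STKO between DMSO and 48 h of DMBA, away from the other 3 genotypes, which fell by 0.59, 0.53 and 0.46 in WT, TKO and SKO. The gap to its nearest neighbour was 0.836 of the whole range, above Dixon's critical value for 4 values, which chance exceeds in about 1 group in 20. The rule was applied to all 13 Hox treatment calls, and this was the only one to pass it. The array of STKO under DMSO held the highest Hoxb2 value of the series, 9.35.

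The Hoxd8 response to DMBA differed by Sting status: the interaction was -0.71 ± 0.16 (limma adjusted p = 0.0471), with a fall at both times in WT and TKO, a rise at both in SKO and values of -0.21 and 0.11 in STKO. The cause was not tested for either result.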

How the results depend on the processing

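Of 55 named Hox results, 55 kept their call with an intensity trend and robust moderation. The count was 53 on the authors' table, 53 without background correction and 53 with probes detected on at least 1 array. It was 44 with median scaling and 39 without a filter. Of the results with a direction, 0 turned it in any setting run. The 11 results of the F test have no direction and could not turn. Without the block, 16 of 41 genotype calls and 4 of 13 treatment calls held. With the arrays of 1 treatment or genotype left out, 68 of 175 held, and those fits have fewer arrays by construction. Calls kept in all settings were Hoxa5 (F test and against TKO), Hoxb9 (F test and SKO and STKO against WT), Hoxd10 (STKO against TKO) and, at 48 h, Hoxc13 and Hoxb2. The F test called 11 Hox probes, 7 without a filter, 4 with genotype alone and 2 to 9 with 1 treatment left out. With genotype alone the counts were 2 for TKO against WT, 2 for SKO against WT, 2 for SKO against TKO, 4 for STKO against TKO and 0 for STKO against SKO. With 1 treatment left out they were 0 to 2, 1 to 5, 1 to 5, 2 to 4 and 0 to 0 in that order, and 1 to 2 for STKO against WT. STKO against SKO gave 0 with median scaling. At 24 h the count of 1 became 2 without background correction, with the intensity trend and on the authors' table, 0 with treatment alone, and 0 to 2 with 1 genotype left out. At 48 h the count of 10 became 4 with treatment alone and 4 to 6 with 1 genotype left out. Between 24 h and 48 h the count of 2 became 1 with median scaling, without background correction and on the authors' table, 0 without a filter and with treatment alone, and 0 to 1 with 1 genotype left out. The count of 1 for dependence on Sting status became 2 with median scaling, without background correction, with the trend and on the authors' table, and 0 with probes detected on 1 array or with no filter. Leaving out arrays was not run for the interactions. The cause of these moves was not tested. Signal over background limits Hoxd12, Hoxd13 and the genes on no array to bounds. The block matches arrays by treatment in the genotype tests and by genotype in the treatment tests. No paired analysis by replicate number was possible because each combination is 1 array with no number.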
